A study of Homo sapiens with 9 samples.

Results

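The genes of the DNA replication machinery were followed in hTERT_RPE1 cells, an established human line from the retinal pigment epithelium that was made immortal with telomerase. The genes are named one by one, by their known role, and no measured value enters the rule, though results of these data were known when the list was drawn up. The list held 56 of the 26475 genes in the count table, and all 56 were among the 13784 genes with enough counts to be tested. The members were grouped into 13 roles, from the origin recognition complex to the histone chaperones that follow the fork.

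A dividing cell copies its genome once per cycle. In G1 phase the origin recognition complex, CDC6 and CDT1 load rings of MCM2 to MCM7 onto origins, and in S phase CDC45, the GINS proteins and MCM10 turn these rings into moving helicases. Polymerases, the PCNA clamp and its loaders then copy both strands, while ribonucleotide reductase and thymidine kinase supply deoxynucleotides and histone chaperones rebuild chromatin. Many of these genes are known targets of E2F transcription factors, which retinoblastoma family proteins hold in check in resting cells.

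The study compared 3 conditions with 3 libraries each, 24 h after the cells were seeded. Control cells carried the empty pLKO_1 vector on glass coated with fibronectin (FN). For sh_PIP4K2B, cells on the same surface were transduced with hairpins against PIP4K2B, a lipid kinase, and each library came from another hairpin (#1, #2 and #3). Soft cells carried the empty vector and grew on an FN-coated gel of 2.3 kPa. For Control and Soft the study's methods and the titles name the empty vector while a treatment label has a control shRNA. Which of these is right could not be settled. The titles also number the vector by replicate in both conditions, and what this number stands for is not stated. The study says in general that its experiments were repeated independently, but nothing states for these libraries that replicates came from separate cultures, so the spread in Control and Soft may be technical, while that in sh_PIP4K2B also holds the differences between hairpins.

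Library totals ran from 19217346 to 24020799 counts, and the floor of 3 counts came to 0.131 to 0.148 CPM (counts scaled by the TMM method to a library of 1e+06). PIP4K2B was at 123, 124 and 119.5 CPM in Control, 48.4, 40.9 and 36.6 CPM with hairpins #1, #2 and #3, and 119, 122 and 127 CPM in Soft. It fell with the hairpins (log2 fold change -1.54, SE 0.12, adjusted p = 3.8e-04) and not in Soft (0.00, adjusted p = 0.98). Of 9 pigment epithelium markers, MITF, OTX2 and BEST1 had enough counts to be tested, while RPE65 and TYR had at most 1 count in any library. OTX2 rose in both conditions (log2 fold change 0.65, adjusted p = 0.0091, in sh_PIP4K2B and 1.77, adjusted p = 1.4e-05, in Soft). BEST1 rose in Soft (2.23, adjusted p = 0.0076), from 1, 7 and 2 counts in Control, near the floor of 3 counts. MITF went the other way without passing, at -0.25 in sh_PIP4K2B and -0.49 in Soft, where every library was below the Control libraries. The summed level of the tested markers was 45.4 to 51.1 CPM for Control, 40.8 to 57.9 for sh_PIP4K2B and 61.3 to 66.0 for Soft. Epithelial keratin genes summed to 1933 to 2086 CPM for Control, 714 to 1130 CPM for sh_PIP4K2B and 907 to 959 CPM for Soft. Of the 3 keratin genes tested, KRT18 fell in both conditions and KRT8 in Soft. KRT7 went the other way in Soft, above Control in every library without passing (log2 fold change 0.32). Of 9 markers of other cell types, PECAM1 and SYP were tested, and the summed level of these 2 was 0.306 to 1.24 CPM in Control and sh_PIP4K2B and 4.69 to 6.33 CPM in Soft. PECAM1, an endothelial marker, had 1, 1 and 5 counts in Control, 5, 1 and 7 with the hairpins and 103, 112 and 97 in Soft. PECAM1 thus rose in Soft (log2 fold change 5.45). CDH5, another endothelial marker, had at most 1 count in any library, and the part of other cells in the results was not tested.

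Short stretches of the promoters of 6 members are shown because they carry the sequence that E2F factors are known to bind. They come from RefSeq windows (GRCh38.p14) of 250 bases before to 50 after the annotated start, which were found for 48 of the 56 members. The windows were searched on both strands for 4 octamers, TTTCCCGC, TTTGGCGC, TTTCGCGC and TTTGCCGC, which can overlap each other. The members shown are the first 6 by role among the MCM2 to MCM7, loading and deoxynucleotide genes whose window holds an octamer. Each stretch is written 5′ to 3′ on the strand of the gene, with the octamers in capitals and 9 bases on either side.
MCM2, chr3:127598404-127598433, plus strand: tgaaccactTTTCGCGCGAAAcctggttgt
MCM3, chr6:52284900-52284925, minus strand: gatggtacgTTTCCCGCcaccgcggg
MCM3, chr6:52284730-52284755, minus strand: ttcggaagtTTTCGCGCcggggtgga
MCM6, chr2:135876575-135876604, minus strand: ggctttgcaTTTGGCGCGAAAtccctttcc
MCM6, chr2:135876513-135876542, minus strand: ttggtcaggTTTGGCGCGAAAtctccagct
MCM7, chr7:100101568-100101593, minus strand: gctcggaccGCGGGAAAcccggcgcc
MCM7, chr7:100101390-100101415, minus strand: ggggcgacgTTTCGCGCcaatttcgg
CDC6, chr17:40287877-40287902, plus strand: ccattcggaTTTGGCGCgagcgcggc
CDT1, chr16:88803745-88803770, plus strand: agggcgcccGCGGGAAAtttggcggg

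In MCM2 and in both stretches of MCM6 the capitals are an octamer on each strand that overlap. At least 1 octamer stood in 24 of the 48 windows of the members (50%), against 3.31% of all 35116 RefSeq windows and 4.13% of the 21608 windows of protein-coding genes. All 4 windows of the MCM2 to MCM7 genes held one, those of MCM4 and MCM5 not being in the table used, while 1 of 6 windows of the origin recognition complex did, that of ORC3. The CCAAT box stood in 56.2% of the members' windows and in 34.6% of all windows. The hexamer TTTGAA, known from promoters of mitotic genes, stood in 4.17% of the members' windows, in 15.2% of all windows and in 15 of 20 windows of a list of mitotic genes. The stretches of MCM2 and CDC6 and the second ones of MCM3 and MCM7 run across the annotated start, and the others lie before it. These are matches of letters, not measured binding.

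Replication genes were lower in both conditions than in Control. In sh_PIP4K2B 34 of the 56 members fell and none rose at an adjusted p below 0.01 (edgeR quasi-likelihood test with Benjamini-Hochberg adjustment over all genes tested), where 2.77% of all genes tested fell and 2.76% rose. In Soft 40 of the 56 fell and none rose, where 14.8% of all genes fell and 15.8% rose. The median log2 fold change of the members was -0.77 in sh_PIP4K2B and -0.76 in Soft, beside 0.05 and 0.01 over all genes tested. All 3 hairpin libraries lay below all 3 Control libraries for 49 members, which held for 16.7% of all genes. All 3 Soft libraries did so for 52 members, which held for 39.1% of all genes. In bulk RNA, fewer cells in S phase and less of these RNAs per cell cannot be told apart.

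The libraries showed this singly as well. The median log2 ratio of the members to the Control mean was -0.78, -0.71 and -0.74 with hairpins #1, #2 and #3, and -0.73, -0.82 and -0.77 in the Soft libraries. Summed over the members, Control held 3511 to 3538 CPM, sh_PIP4K2B 2115 to 2445 CPM and Soft 2185 to 2287 CPM, so both conditions lay below Control and overlapped each other. The median SD of log2 CPM between the libraries of a condition was 0.17 for the members in sh_PIP4K2B, against 0.06 in Control and in Soft, while over all genes tested it was 0.36, 0.08 and 0.07.

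**Figure D1:**
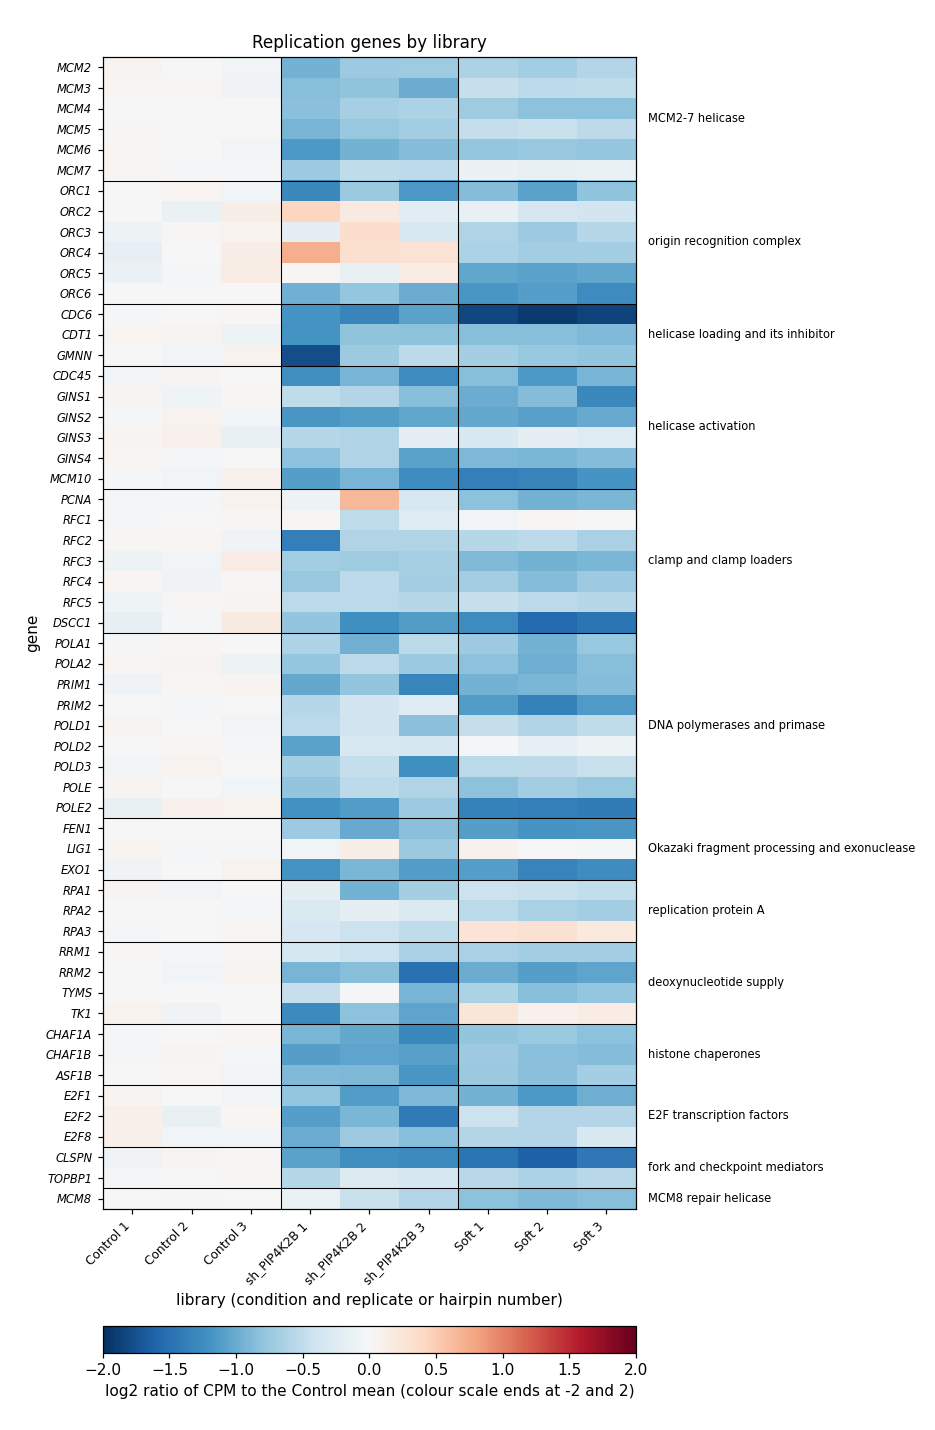
Heat map of the 56 replication genes (rows, by role) in the 9 libraries (columns), coloured by the log2 ratio of CPM to the Control mean. With all 3 hairpins 49 genes are below the Control mean, and in all 3 Soft libraries 52 are. The row of ORC4 is red with each hairpin and that of PCNA with hairpin #2, and the rows of TK1 and RPA3 are red in Soft.

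Calls in sh_PIP4K2B were sensitive to the libraries that entered the fit. In the main fit of 9 libraries the 3 conditions shared 1 estimate of the spread, though the hairpin libraries spread more widely. Counts of calls in sh_PIP4K2B and in Soft are therefore not directly comparable. Fitted with Control alone, Soft passed 51 members in place of 40. In that fit 9601 of all 13578 genes tested passed, in place of 4217 of 13784. In a fit of sh_PIP4K2B and Control alone edgeR passed 0 members at 0.01, with 32 at an adjusted p below 0.05 and 48 at an unadjusted p below 0.05, and DESeq2 on the 9 libraries passed 41. Without Control replicate 1, 2 or 3 the count of members was 13, 7 and 17, and without Soft replicate 3 it was 22.

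The calls combined as follows. Between the conditions, 30 members fell in both and 12 passed in neither. Another 10 passed in Soft and not in sh_PIP4K2B, and 4 in sh_PIP4K2B and not in Soft. Both comparisons use the same Control libraries, so the difference between them was tested directly, as Soft against sh_PIP4K2B. It passed for 10 members, 6 lower in Soft (15.5% of all genes tested) and 4 higher in Soft (14.5% of all genes), so a smaller share of the members than of all genes passed in each direction. The median over the members was -0.03.

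**Figure D2:**
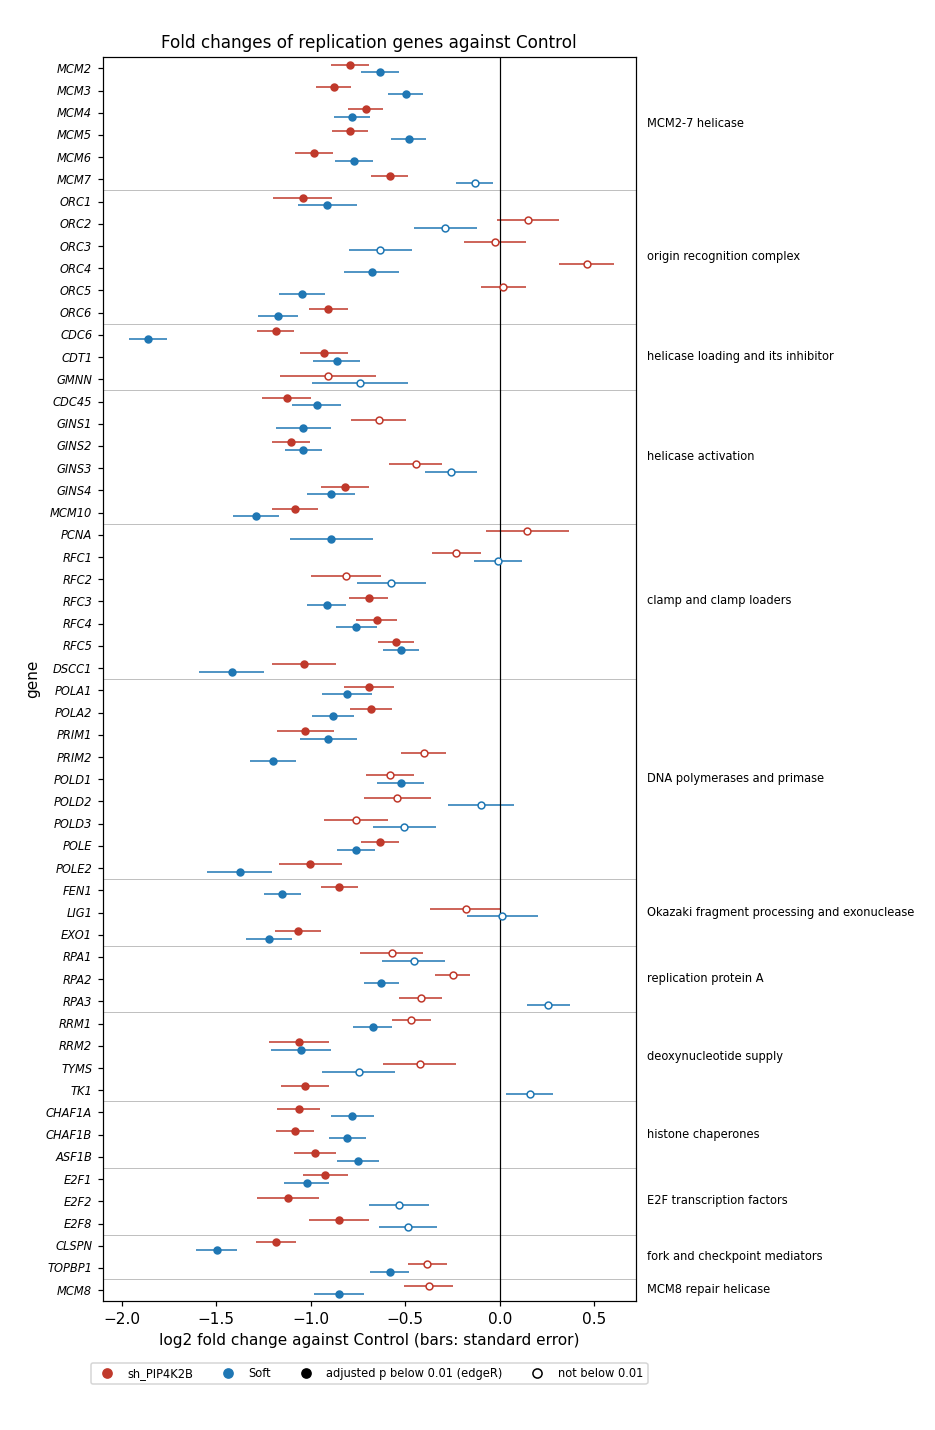
Log2 fold change of each replication gene against Control in sh_PIP4K2B (red) and Soft (blue), with bars for the standard error and filled points for an adjusted p below 0.01. Points lie left of 0 for 52 genes in sh_PIP4K2B and 53 in Soft, and the point farthest left is CDC6 in Soft (-1.86).

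The MCM2 to MCM7 genes encode the ring of the replicative helicase. All 6 fell in sh_PIP4K2B and 5 of 6 in Soft, with medians of -0.79 and -0.57 on the log2 scale. Beside this and the counts of each role below, 2.77% of all genes tested fell in sh_PIP4K2B and 14.8% in Soft. MCM2 was at 93.1, 89.97 and 86.8 CPM in Control, 46.7, 54.4 and 54.8 CPM with hairpins #1, #2 and #3, and 58.1, 55.8 and 60.2 CPM in Soft. Its log2 fold change was -0.79 (SE 0.10, adjusted p = 0.0015) and -0.63 (SE 0.10, adjusted p = 8.0e-04). MCM3 was at 144, 144 and 135 CPM in Control, 78.6, 80.4 and 71.1 CPM with the hairpins and 103, 97.7 and 99.5 CPM in Soft. For MCM3 the Soft libraries thus lay between the other conditions, with no overlap.
MCM4 was at 176, 175 and 173 CPM in Control, 98.2, 109.9 and 113 CPM with the hairpins and 107, 99.2 and 98.9 CPM in Soft. MCM4 had about the same level in both conditions, -0.71 in sh_PIP4K2B and -0.78 in Soft on the log2 scale. MCM5 was at 105, 103 and 103 CPM in Control, 54.5, 61.3 and 64.3 CPM with the hairpins and 74.3, 76.3 and 72.4 CPM in Soft. MCM6 was at 88.3, 86.4 and 82.6 CPM in Control, 38.8, 44.7 and 46.9 CPM with the hairpins and 50.4, 50.6 and 49.9 CPM in Soft. Of the ring genes MCM6 had the lowest log2 fold change in sh_PIP4K2B, -0.98 (SE 0.10, adjusted p = 7.3e-04). MCM7, which also hosts microRNAs in an intron, was at 186, 178 and 176 CPM in Control and 109, 127 and 125 CPM with the hairpins. In Soft it was at 166, 163 and 165 CPM, below all Control libraries, but did not pass (log2 fold change -0.13, SE 0.10, adjusted p = 0.29). Whether the counting used strand is not stated, and 32.4% of the exonic sequence of MCM2 overlaps a gene on the other strand.
In sh_PIP4K2B only MCM6 of the ring genes passed 0.01 whichever library was left out. Without Control replicate 2 MCM2, MCM3, MCM4, MCM5 and MCM7 did not pass (adjusted p of 0.0104 to 0.035 at most over the libraries left out), and MCM7 did not pass on leaving out any single Control or Soft library. In Soft MCM5 did not pass on leaving out any single Control or Soft library and MCM3 on leaving out any of these but Control replicate 3 (adjusted p of at most 0.019 and 0.015). MCM2, MCM4 and MCM6 passed in Soft in each of these fits.

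The origin recognition complex, which marks the sites where rings are loaded, split in sh_PIP4K2B. ORC1 and ORC6 fell in both conditions, ORC4 and ORC5 fell in Soft only by this threshold, and ORC2 and ORC3 passed in neither. ORC1, the subunit known to vary through the cell cycle, was at 19.4, 19.7 and 18.4 CPM in Control, 7.87, 11.4 and 8.65 CPM with the hairpins and 10.5, 9.09 and 10.95 CPM in Soft. For sh_PIP4K2B its log2 fold change was -1.04 (SE 0.16, adjusted p = 0.0032) and for Soft -0.91 (SE 0.16, adjusted p = 0.0013). ORC6 was at 33.4, 33.4 and 33.6 CPM in Control, 17.3, 19.6 and 16.8 CPM with the hairpins and 14.9, 15.6 and 14.04 CPM in Soft, and had the lowest value of the complex there (log2 fold change -1.17, SE 0.11, adjusted p = 4.7e-05).
ORC4 was at 20.3, 22.9 and 24.9 CPM in Control, 37.7, 28.3 and 27.6 CPM with the hairpins and 14.6, 14.00 and 13.99 CPM in Soft. Every hairpin library was above and every Soft library below the Control libraries, and only the value in Soft passed (log2 fold change -0.68, SE 0.15, adjusted p = 0.0044, against 0.46, SE 0.14, adjusted p = 0.055 in sh_PIP4K2B). ORC5 was at 22.6, 23.8 and 27.1 CPM in Control, 25.05, 22.2 and 27.3 CPM with the hairpins, which overlapped Control, and 11.99, 11.7 and 11.9 CPM in Soft. Its log2 fold change in Soft was -1.05 (SE 0.12, adjusted p = 1.6e-04). ORC2 was at 28.1, 25.5 and 30.4 CPM in Control, 37.5, 31.7 and 23.8 CPM with the hairpins and 25.1, 22.2 and 21.4 CPM in Soft, and passed in neither condition (log2 fold change -0.29 in Soft, adjusted p = 0.18). The median of the complex was -0.00 in sh_PIP4K2B and -0.79 in Soft. Without Control replicate 1, 2 or 3 ORC1 did not pass in sh_PIP4K2B (adjusted p of at most 0.022), nor did ORC6 without Control replicate 2 (0.0105). In Soft ORC4 did not pass without Control replicate 2 or 3 or on leaving out any single Soft library (adjusted p of at most 0.023), while ORC3 passed on leaving out any single hairpin (7.1e-04 at the lowest).

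The loading genes CDC6 and CDT1 fell in both conditions. CDC6, which joins the origin recognition complex to receive the rings, was at 86.9, 87.95 and 89.00 CPM in Control, 38.7, 35.2 and 42.1 CPM with the hairpins and 24.9, 23.3 and 24.5 CPM in Soft, without overlap between any of the conditions. It had the lowest log2 fold change of the 56 members in both comparisons, -1.19 (SE 0.10, adjusted p = 4.7e-04) in sh_PIP4K2B and -1.86 (SE 0.10, adjusted p = 4.9e-06) in Soft. In linear terms this was 43.98% and 27.5% of Control. CDT1, which brings the rings, was at 43.7, 44.5 and 39.8 CPM in Control, 18.6, 24.4 and 24.2 CPM with the hairpins and 23.6, 23.5 and 23.2 CPM in Soft. CDT1 had -0.93 and -0.86 on the log2 scale, and its call in sh_PIP4K2B was lost without Control replicate 1, 2 or 3 (adjusted p of at most 0.015). GMNN, the inhibitor of CDT1, was at 32.5, 31.5 and 34.3 CPM in Control and 20.5, 19.3 and 19.04 CPM in Soft. With hairpins #1, #2 and #3 it was at 9.62, 19.8 and 22.9 CPM. All of these were below Control, but hairpin #1 stood apart and GMNN passed in neither comparison (adjusted p = 0.039 and 0.038). Without hairpin #1 GMNN passed in both (adjusted p = 0.0029 and 1.1e-04).

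Helicase activation genes were lower in every library of both conditions than in the Control libraries. This held for 16.7% of all genes tested with the hairpins and for 39.1% in Soft. Of the 6 activation genes, 4 fell in sh_PIP4K2B and 5 in Soft, with medians of -0.951 and -1.004. CDC45, part of the moving helicase, was at 28.3, 30.3 and 29.3 CPM in Control, 12.6, 15.4 and 12.3 CPM with the hairpins and 16.2, 13.2 and 15.5 CPM in Soft. It had the lowest value of the activation genes in sh_PIP4K2B (log2 fold change -1.13, SE 0.13, adjusted p = 0.0011). MCM10, needed for the rings to start moving, was at 30.9, 30.4 and 33.3 CPM in Control, 14.7, 16.6 and 13.3 CPM with the hairpins and 12.3, 12.5 and 13.9 CPM in Soft. It had the lowest value in Soft (log2 fold change -1.29, SE 0.12, adjusted p = 5.5e-05). The GINS genes encode a complex of 4 proteins that joins CDC45. Genes on the other strand overlap 33.4% of the exonic sequence of GINS4 and 14.4% of that of GINS3. GINS2 and GINS4 fell in both conditions, and GINS1 passed in Soft (log2 fold change -1.04, adjusted p = 4.6e-04) and not in sh_PIP4K2B (-0.64, adjusted p = 0.017). GINS3 was at 19.9, 20.2 and 17.3 CPM in Control, 12.9, 12.6 and 16.7 CPM with the hairpins and 15.4, 16.7 and 15.96 CPM in Soft, and passed in neither. In sh_PIP4K2B the call of CDC45 was lost without Control replicate 2 (adjusted p = 0.0104) and that of GINS4 on leaving out any single Control or Soft library (0.024 at most). GINS1 passed there without hairpin #1 and GINS3 without hairpin #3 (adjusted p = 0.0083 and 0.0057).

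The sliding clamp and its main loader were split. Of 7 genes, 4 fell in sh_PIP4K2B (RFC3, RFC4, RFC5 and DSCC1), and these 4 and PCNA fell in Soft. PCNA, the clamp that holds polymerases on DNA, was at 144, 144 and 155 CPM in Control and 138, 234 and 118 CPM with hairpins #1, #2 and #3. Hairpin #2 was thus above the Control libraries and the other two below them. In Soft PCNA was at 83.6, 76.9 and 78.2 CPM, below all other libraries (log2 fold change -0.89, SE 0.22, adjusted p = 0.0089). DSCC1, a subunit of another clamp loader, was at 9.45, 10.4 and 12.02 CPM in Control, 6.12, 4.53 and 4.89 CPM with the hairpins and 4.47, 3.62 and 3.84 CPM in Soft. It had the lowest log2 fold change of the group in both comparisons, -1.04 (SE 0.17) and -1.42 (SE 0.17). RFC1, the large subunit of the main loader, was at 90.7, 93.8 and 96.1 CPM in Control, 94.8, 66.04 and 78.5 CPM with the hairpins and 90.4, 95.3 and 93.2 CPM in Soft. These ranges overlapped Control, and RFC1 passed in neither (adjusted p = 0.25 and 0.96). RFC2 was below Control in every library of both conditions and did not pass (log2 fold change -0.81 and -0.57), but passed in both without hairpin #1 (adjusted p = 0.0013 and 1.4e-04).
The 4 calls of this group in sh_PIP4K2B were each lost on leaving out any single Control or Soft library, at adjusted p of at most 0.043. In Soft the call of PCNA was lost on leaving out any of the same 6 libraries (0.036 at most), and that of RFC5 without Control replicate 2 or 3 or Soft replicate 2 or 3 (0.014 at most).

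All 9 polymerase and primase genes were below the Control libraries in every hairpin and Soft library. This held for 16.7% of all genes tested with the hairpins and for 39.1% in Soft. In sh_PIP4K2B 5 of the 9 fell and in Soft 7, with medians of -0.68 and -0.81. PRIM1, the catalytic subunit of primase, which lays down RNA primers, was at 11.9, 12.7 and 12.9 CPM in Control, 6.12, 7.23 and 5.04 CPM with the hairpins and 6.48, 6.67 and 6.88 CPM in Soft. It had the lowest value of the group in sh_PIP4K2B (log2 fold change -1.03, SE 0.15, adjusted p = 0.0028). PRIM2, the other primase subunit, was at 26.8, 26.1 and 26.8 CPM in Control, 17.9, 20.3 and 22.2 CPM with the hairpins and 12.2, 10.4 and 12.1 CPM in Soft. It was lower in Soft than with any hairpin (log2 fold change -1.20, SE 0.12, adjusted p = 8.4e-05) and did not pass in sh_PIP4K2B (-0.40, adjusted p = 0.047). POLE2, a subunit of the leading strand polymerase epsilon, was at 7.54, 8.87 and 8.78 CPM in Control, 3.64, 3.85 and 5.09 CPM with the hairpins and 3.28, 3.24 and 3.17 CPM in Soft. Its value in Soft was the lowest of the group (log2 fold change -1.38, SE 0.17, adjusted p = 2.3e-04). POLD2, a subunit of the lagging strand polymerase delta, was at 143, 146 and 140.0 CPM in Control, 68.4, 115 and 112 CPM with the hairpins and 139, 127 and 134 CPM in Soft, and passed in neither (log2 fold change -0.54 and -0.10). POLA1, POLA2 and POLE fell in both conditions, by 0.64 to 0.69 in sh_PIP4K2B and by 0.76 to 0.88 in Soft on the log2 scale. POLD1 passed in Soft (log2 fold change -0.52, adjusted p = 0.0075) and not in sh_PIP4K2B (-0.58, adjusted p = 0.014), and POLD3 passed in neither (-0.76 and -0.50).
Of the 75-mers of the POLA2 transcript 54.9% also occur in another annotated gene, as do 21.3% of those of PRIM1, 18.7% of PRIM2 and 10.5% of POLD1, so how their reads were assigned is uncertain. In sh_PIP4K2B the calls of POLA1, POLA2, POLE and POLE2 were lost on leaving out any single Control or Soft library, and that of PRIM1 on leaving out any single Control library (adjusted p of at most 0.049). POLD1 and POLD3 passed there without hairpin #2 or #3 (0.004 and 0.0043 at the lowest). In Soft the call of POLD1 was lost on leaving out any single Control or Soft library (0.037 at most), and POLD3 passed without hairpin #3 (0.0012).

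FEN1 and EXO1 fell in both conditions and the ligase gene LIG1 in neither. FEN1, which trims flaps from Okazaki fragments, was at 114, 115 and 113 CPM in Control, 68.97, 56.9 and 64.1 CPM with the hairpins and 52.9, 50.5 and 50.6 CPM in Soft (-0.85 and -1.15 on the log2 scale). EXO1, an exonuclease, was at 27.1, 28.4 and 29.7 CPM in Control, 12.4, 15.1 and 13.1 CPM with the hairpins and 13.3, 11.2 and 12.1 CPM in Soft. Its log2 fold change was -1.07 (SE 0.12, adjusted p = 0.001) and -1.22 (SE 0.12, adjusted p = 7.3e-05). LIG1, which seals the fragments, was at 47.4, 44.9 and 44.7 CPM in Control, 44.2, 49.5 and 27.3 CPM with the hairpins and 48.2, 45.9 and 44.3 CPM in Soft. For LIG1 hairpins #1 and #3 lay below the Control libraries and hairpin #2 above them, and the Soft libraries overlapped them. Without Control replicate 2 neither FEN1 nor EXO1 passed in sh_PIP4K2B (adjusted p = 0.011 and 0.0104).

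Of the genes for replication protein A, which coats single-stranded DNA, none passed in sh_PIP4K2B and RPA2 fell in Soft. RPA2 was at 57.6, 57.7 and 56.3 CPM in Control, 47.01, 50.5 and 46.9 CPM with the hairpins and 39.3, 36.5 and 35.3 CPM in Soft (log2 fold change -0.63, SE 0.09, adjusted p = 5.8e-04). RPA1 was at 135, 125 and 129.5 CPM in Control, 113, 67.8 and 81.4 CPM with the hairpins and 96.8, 95.2 and 92.3 CPM in Soft. All of these lay below Control, and RPA1 passed in neither condition (adjusted p = 0.043 and 0.046) but in both without hairpin #1 (9.0e-04 and 0.0013). RPA3 was at 9.64, 9.87 and 10.1 CPM in Control, 7.83, 7.37 and 6.97 CPM with the hairpins and 11.99, 12.2 and 11.3 CPM in Soft. Its hairpin libraries lay below and its Soft libraries above Control, and neither value passed (log2 fold change -0.42, adjusted p = 0.036, and 0.26, adjusted p = 0.09).

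Among the genes for deoxynucleotide supply, RRM2 fell in both conditions, TK1 in sh_PIP4K2B and RRM1 in Soft. RRM2, the subunit of ribonucleotide reductase that varies through the cell cycle, was at 326, 314 and 342 CPM in Control, 173, 181 and 116 CPM with the hairpins and 164, 153 and 157 CPM in Soft. Its log2 fold changes were -1.06 (SE 0.16, adjusted p = 0.0033) and -1.05 (SE 0.16, adjusted p = 7.0e-04). TK1, thymidine kinase of the salvage pathway, was at 60.4, 54.6 and 56.7 CPM in Control, 23.8, 32.6 and 27.7 CPM with the hairpins and 67.4, 60.9 and 63.4 CPM in Soft. TK1 fell in sh_PIP4K2B (log2 fold change -1.03, SE 0.13, adjusted p = 0.0014) while every Soft library was above every Control library without passing (0.16, adjusted p = 0.32). TYMS, which makes thymidylate, was at 136, 137 and 136 CPM in Control, 99.5, 134 and 71.3 CPM with the hairpins and 88.1, 75.6 and 80.01 CPM in Soft. Hairpin #2 was just below Control for TYMS and hairpin #3 far below, and neither comparison passed (adjusted p = 0.16 and 0.011). Of the exonic sequence of TYMS 66.5% overlaps genes on the other strand. RRM1 had -0.47 in sh_PIP4K2B (adjusted p = 0.015) and -0.67 in Soft (adjusted p = 6.9e-04).
In sh_PIP4K2B the call of RRM2 was lost on leaving out any single Control library or without Soft replicate 3 (adjusted p of at most 0.02), and that of TK1 without Control replicate 1 or 2 (0.011 at most). RRM1 passed there on leaving out any single hairpin (0.0028 at the lowest), as TYMS did in Soft (7.8e-04).

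All 3 histone chaperone genes fell in both conditions. CHAF1A and CHAF1B encode subunits of chromatin assembly factor 1, which deposits histones behind the fork, and ASF1B hands histones to it. CHAF1B was at 27.2, 29.3 and 27.7 CPM in Control, 13.1, 13.5 and 13.2 CPM with the hairpins and 17.01, 15.8 and 15.4 CPM in Soft (-1.08 and -0.81 on the log2 scale). The 3 hairpins gave nearly the same level of CHAF1B, and no condition overlapped another. ASF1B was at 45.5, 46.2 and 43.7 CPM in Control, 24.4, 24.2 and 20.2 CPM with the hairpins and 27.04, 25.2 and 28.2 CPM in Soft (log2 fold change -0.98 and -0.75). CHAF1A had -1.06 (SE 0.11, adjusted p = 9.1e-04) and -0.78 (SE 0.11, adjusted p = 5.2e-04). CHAF1A and CHAF1B passed in both comparisons whichever library was left out, while the call of ASF1B in sh_PIP4K2B was lost without Control replicate 2 (adjusted p = 0.0104).

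The E2F genes on the list fell in sh_PIP4K2B, and E2F1 also fell in Soft. E2F1, an activator of S phase genes, was at 52.7, 50.6 and 48.7 CPM in Control, 29.7, 23.4 and 27.1 CPM with the hairpins and 26.4, 22.9 and 25.6 CPM in Soft (-0.92 and -1.02 on the log2 scale). E2F2, another activator, was at 10.6, 8.87 and 10.1 CPM in Control, 4.60, 5.25 and 3.71 CPM with the hairpins and 7.34, 6.52 and 6.53 CPM in Soft. E2F8, a repressor of the family, was at 6.89, 6.14 and 6.16 CPM in Control, 3.22, 3.85 and 3.56 CPM with the hairpins and 4.24, 4.29 and 5.19 CPM in Soft. For both, the Soft libraries lay between the other conditions and did not pass against Control (adjusted p = 0.021 and 0.028). In sh_PIP4K2B the calls of E2F1 were lost without Control replicate 1 or 2, those of E2F2 on leaving out any single Control library, and those of E2F8 on leaving out any single Control or Soft library (adjusted p of at most 0.013, 0.02 and 0.048). Without hairpin #2 or #3 E2F2 passed in Soft (0.0047 at the lowest).

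CLSPN and TOPBP1 link the fork to the replication checkpoint. CLSPN was at 51.6, 56.7 and 55.2 CPM in Control, 26.01, 23.4 and 22.5 CPM with the hairpins and 19.8, 17.7 and 20.3 CPM in Soft. CLSPN fell in both, and its log2 fold change was -1.18 (SE 0.11, adjusted p = 5.2e-04) and -1.499 (SE 0.11, adjusted p = 1.5e-05). TOPBP1 was at 57.00, 58.9 and 60.3 CPM in Control, 39.6, 48.7 and 46.8 CPM with the hairpins and 39.9, 38.00 and 39.8 CPM in Soft, and passed in Soft alone (log2 fold change -0.58, adjusted p = 0.0017). MCM8, a helicase of DNA repair rather than of the fork, was at 25.4, 26.1 and 25.6 CPM in Control, 23.5, 18.8 and 17.1 CPM with the hairpins and 14.6, 13.9 and 14.3 CPM in Soft. It passed in Soft (log2 fold change -0.85, SE 0.13, adjusted p = 7.3e-04) and not in sh_PIP4K2B (-0.37, adjusted p = 0.076), and 31.9% of its 75-mers occur in another annotated gene. Without Control replicate 3 or Soft replicate 2 or 3 TOPBP1 did not pass in Soft (adjusted p of at most 0.012), and MCM8 passed in sh_PIP4K2B without hairpin #1 (0.0036).

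Set against each other, Soft and sh_PIP4K2B differed in 10 members, given here as the log2 difference of Soft from sh_PIP4K2B. TK1 had the highest value, 1.19 (SE 0.13, adjusted p = 1.2e-04), followed by RPA3 (0.68, SE 0.12, adjusted p = 0.0013). MCM7 (0.45, SE 0.10, adjusted p = 0.0049) and MCM3 (0.38, SE 0.09, adjusted p = 0.0085) were also higher in Soft. The lowest was ORC4 (-1.14, SE 0.15, adjusted p = 3.1e-04), then ORC5 (-1.06, SE 0.12, adjusted p = 1.7e-04) and PCNA (-1.04, SE 0.22, adjusted p = 0.0043). PRIM2 (-0.80, SE 0.12, adjusted p = 7.5e-04), CDC6 (-0.67, SE 0.10, adjusted p = 6.1e-04) and RPA2 (-0.38, SE 0.09, adjusted p = 0.0084) were lower in Soft as well. In each of the 10 the Soft and hairpin libraries did not overlap, which their choice by a test of the same libraries favours. Of all 13784 genes tested, 3675 lay lower and 3763 higher in Soft without overlap. The 10 genes lie on several chromosomes (GRCh38). TK1 is on chromosome 17 from 78174091 to 78187233, ORC4 on chromosome 2 from 147930396 to 148021604 and PCNA on chromosome 20 from 5114953 to 5126626. RPA3 (7636518 to 7718607), MCM7 (from 100092233) and ORC5 (from 104126341) share chromosome 7. MCM3 (from 52264014) and PRIM2 (from 57314805) share chromosome 6.
The difference of MCM3, MCM7 and RPA2 was lost on leaving out any single Control or Soft library (adjusted p of at most 0.042, 0.024 and 0.049), and that of PCNA on leaving out any single Soft library (0.021 at most). TK1, RPA3, CDC6, PRIM2, ORC4 and ORC5 passed in each of these fits. ORC3 and MCM8 passed without hairpin #1 or #3 (0.0037 and 0.0027 at the lowest), MCM5, ORC2, RRM1 and TYMS without hairpin #3, FEN1 and E2F2 without hairpin #2, and TOPBP1 without hairpin #1.

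**Figure D3:**
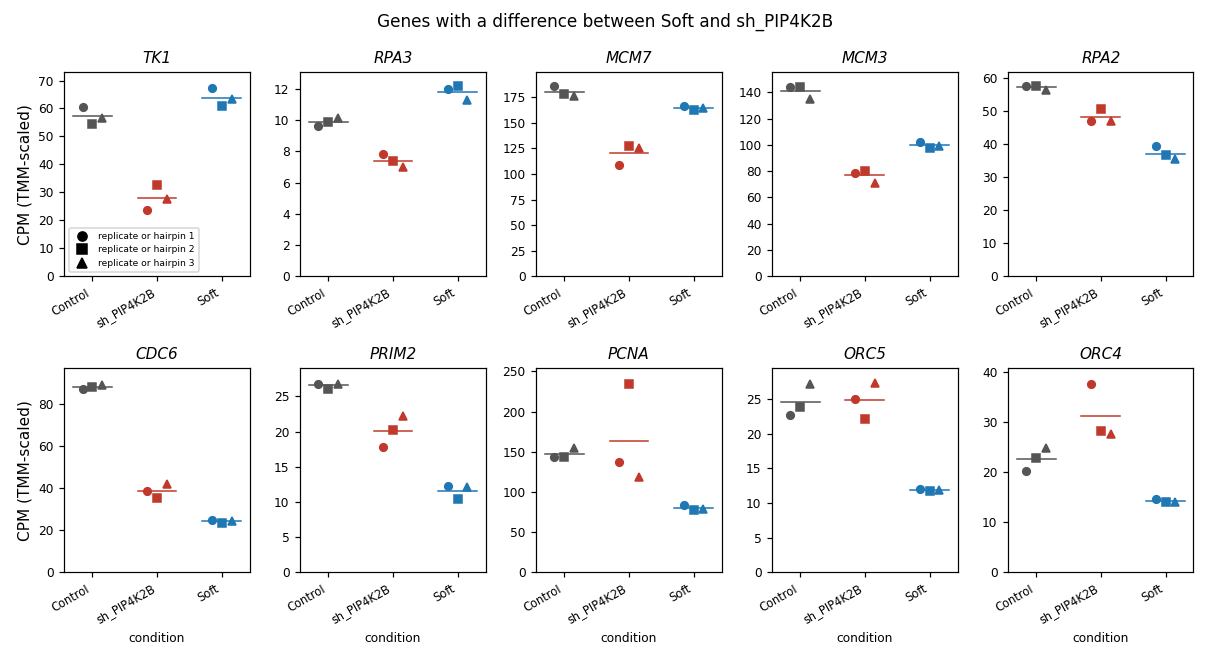
CPM of the 10 genes that differed between Soft and sh_PIP4K2B, one panel per gene with its own axis from 0, with 3 libraries per condition (symbols) and their mean (line). TK1, RPA3, MCM7 and MCM3 are higher in Soft than with any hairpin, and RPA2, CDC6, PRIM2, PCNA, ORC5 and ORC4 are lower. PCNA ranges from 118 to 234 CPM over the hairpins.

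The hairpins differed more for some members than for others. With all 3 hairpins 49 members lay below the Control mean, 6 lay on both sides and ORC4 lay above it. Among the members with the widest spread between hairpins were GMNN, with an SD of log2 CPM of 0.67, PCNA with 0.52 and TYMS with 0.46, while CHAF1B, RFC5 and RFC3 had 0.02 each. In Soft 52 members lay below the Control mean in all 3 libraries, TK1 and RPA3 above it, and RFC1 and LIG1 on both sides.

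Per kilobase of transcript, which allows levels to be compared between genes, PCNA and RRM2 led the list in Control, at 116 ± 5.07 and 100.5 ± 4.18 CPM per kb (SD, n = 3). Within the helicase ring, whose proteins are used in equal numbers, MCM7 was at 73.05 ± 2.11, MCM3 at 46.00 ± 1.82, MCM4 at 43.04 ± 0.325, MCM5 at 30.03 ± 0.363, MCM2 at 26.2 ± 0.919 and MCM6 at 22.9 ± 0.775 CPM per kb in Control (SD, n = 3). The ranges of mean ± SD of neighbours in this order did not overlap, but this SD measures only the spread of each gene between Control libraries. It does not cover the choice of transcript length, so the order between genes was not tested. Within the origin recognition complex ORC6 was at 20.7 ± 0.0834 CPM per kb in Control and ORC4 at 3.47 ± 0.355 (SD, n = 3). The length used was that of 1 canonical transcript per gene.

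Other genes of replication were listed apart. Of 32 such genes 8 fell and 1 rose in sh_PIP4K2B, where 2.77% and 2.76% of all genes did. In Soft 13 fell and 1 rose, where 14.8% and 15.8% of all genes did. Their medians were -0.33 and -0.32 on the log2 scale. TIPIN, which protects the fork (-0.63 and -1.42 on the log2 scale), and DONSON (-0.67 and -1.27) fell in both conditions. POLE3, a subunit of polymerase epsilon, fell in Soft (log2 fold change -1.001, adjusted p = 4.2e-05) and not in sh_PIP4K2B (-0.11, adjusted p = 0.39). The gene that rose in Soft was TK2, mitochondrial thymidine kinase (log2 fold change 1.20, adjusted p = 9.1e-05). The gene that rose in sh_PIP4K2B was RRM2B, the reductase subunit known as a p53 target (log2 fold change 1.38, adjusted p = 0.0031), which fell in Soft (-1.24, adjusted p = 0.0012) and is named after its values were seen.

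Other E2F, DP and pocket proteins are partners and relatives of the E2F factors above. Of 10 genes 1 fell and 1 rose in sh_PIP4K2B, with 2.77% and 2.76% for all genes, and 2 fell and 2 rose in Soft, near the 14.8% and 15.8% of all genes. The medians were 0.18 and -0.63 on the log2 scale. RBL1, the pocket protein p107, fell in both conditions (log2 fold change -0.89, adjusted p = 0.0015, and -0.94, adjusted p = 1.9e-04). RBL2, the pocket protein p130 of resting cells, rose in Soft (log2 fold change 0.79, adjusted p = 0.0066), as did TFDP2, a partner that E2F factors need to bind DNA (0.78, adjusted p = 0.001). E2F6, a repressor of the family, rose in sh_PIP4K2B (log2 fold change 0.80, adjusted p = 0.0094). RB1, the retinoblastoma gene, fell in Soft (-0.69, adjusted p = 0.0098) and is named after its value was seen. With hairpins #1, #2 and #3 RB1 went the other way without passing, at 3733, 2155 and 2314 counts against 1776, 1997 and 2119 in Control.

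Mitotic genes were for the most part lower in sh_PIP4K2B than in Soft. Of 24 mitotic genes 23 fell in sh_PIP4K2B (2.77% of all genes) and 7 in Soft (14.8% of all genes), with medians of -0.91 and -0.20 on the log2 scale, and none rose. When sh_PIP4K2B was fitted with Control only, 5 of all genes passed, so most of these 23 calls were lost there too. CENPE, a kinetochore motor (-0.86 and -1.05 on the log2 scale), TTK, a checkpoint kinase (-0.84 and -0.70), and CDK1, the kinase that starts mitosis (-0.96 and -0.78), fell in both. AURKB, a kinase of chromosome segregation, fell in sh_PIP4K2B (log2 fold change -0.93) but not by this threshold in Soft (-0.32, adjusted p = 0.024). Summed over the list, Control held 2404 to 2471 CPM, sh_PIP4K2B 1137 to 1504 CPM and Soft 2162 to 2264 CPM. In Soft against sh_PIP4K2B 17 of the 24 were higher (14.5% of all genes) and none lower, with a median of 0.80, where the median of the replication members was -0.03. Their part in the results on replication genes was not tested.

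**Figure D4:**
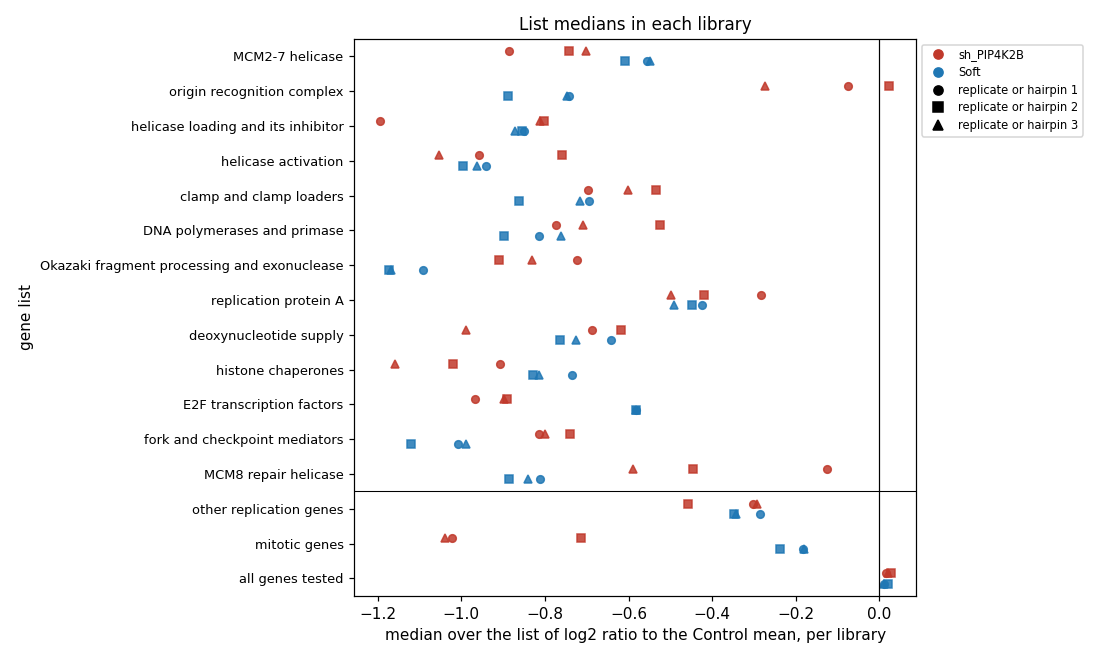
Median log2 ratio to the Control mean in each hairpin (red) and Soft (blue) library for the 13 roles of the replication genes and, below the line, for 32 other replication genes, 24 mitotic genes and all genes tested. The origin recognition complex lies between -0.27 and 0.02 with the hairpins and between -0.74 and -0.89 in Soft, while the mitotic genes lie between -0.71 and -1.04 with the hairpins and between -0.18 and -0.24 in Soft.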

How the data were processed

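RNA was measured by stranded mRNA sequencing with paired reads of 75 nt in 9 libraries of hTERT_RPE1 cells, 3 each of Control, sh_PIP4K2B and Soft. The authors aligned reads to the human genome (GRCh38) with STAR, and the submitters' processing notes also name Salmon. The counting tool, the annotation and whether strand was used are not given in the sources used here. The authors deposited one table of estimated counts per gene, 12.3% of them not whole, which were rounded to whole numbers. No authors' fold changes or p-values were used.

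Genes with low counts were removed with filterByExpr, libraries were scaled by TMM, and a quasi-likelihood model was fitted to all 9 libraries (R 4.3.3, edgeR 4.0.16). Each condition was set against Control, and Soft against sh_PIP4K2B, with p-values adjusted by Benjamini-Hochberg over all genes tested, with a threshold of 0.01. Standard errors of log2 fold changes were derived from the F statistic. CPM levels used TMM-scaled library sizes. Library totals of 19217346 to 24020799 counts set the precision of single values, and the floor of 3 counts covers counting error only. Counts per gene of replicate libraries differed by more than sampling noise, so none was taken as a repeat of another.

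Values in every library are given for MCM2 to MCM7 and, in each other role, for the genes with the lowest and highest log2 fold change in a comparison against Control and for genes whose direct difference passed. Other lists are given by counts, medians and up to 4 genes with the lowest adjusted p. The members and lists were chosen with earlier results of these data known. Alternatives were DESeq2 1.42.0, other filters and scalings, a fit of the compared conditions only, a replicate block, a threshold of 0.05, a shorter list, and leaving out each library in turn. The steps were tested on simulated data with the spread of Control and Soft, scored for Soft against Control only. The wider spread between hairpins was not simulated, so this test does not cover the comparisons with sh_PIP4K2B. Promoter windows came from a RefSeq table (GRCh38.p14), with windows for 48 of the 56 members, and gene positions, transcript lengths and overlaps from the GENCODE annotation of GRCh38.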

Additional observations from a re-analysis of the deposited data

Results flagged for a closer look

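In 10 replication genes the values in Soft and in sh_PIP4K2B differed by the direct test between these conditions (edgeR, adjusted p below 0.01), which is why they are listed again here. This is 10 of 56 members, where 4135 of all 13784 genes tested differed. On the log2 scale, Soft against sh_PIP4K2B, the genes higher in Soft were TK1 (1.19), RPA3 (0.68), MCM7 (0.45) and MCM3 (0.38). Those lower in Soft were RPA2 (-0.38), CDC6 (-0.67), PRIM2 (-0.80), PCNA (-1.04), ORC5 (-1.06) and ORC4 (-1.14). Of these, MCM3 and CDC6 fell against Control in both conditions, MCM7 and TK1 fell in sh_PIP4K2B, RPA2, PRIM2, PCNA, ORC5 and ORC4 fell in Soft, and RPA3 passed in neither. The calls of MCM3, MCM7 and RPA2 were lost on leaving out any single Control or Soft library, and that of PCNA on leaving out any single Soft library (adjusted p of at most 0.042, 0.024, 0.049 and 0.021). The value of PCNA in sh_PIP4K2B rests on hairpins that lay on both sides of Control, at 138, 234 and 118 CPM.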

How the results depend on the processing

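No alternative turned the direction of a called replication gene in any of the 3 comparisons. In sh_PIP4K2B the count of 34 genes that fell was 0 when only that condition and Control were fitted (edgeR, with 48 at an unadjusted p below 0.05), 41 with DESeq2, 18 with the replicate block, and 7 to 40 over fits that each left out 1 library, lowest without Control replicate 2, where 66 of all genes passed in place of 763. The other alternatives gave 27 to 44, and none of the 34 calls held under every one of the 16 alternatives compared gene by gene. In Soft the count of 40 was 33 to 51 under all alternatives, and 33 of these calls held under all 16. The 51 came from the fit with Control alone, where 9601 of all 13578 genes tested passed. The direct difference counted 10 genes, 5 when only Soft and sh_PIP4K2B were fitted, 18 at a threshold of 0.05, and 6 to 16 over fits without 1 library. The cause was not tested. Numbered libraries did not deviate together, with correlations between -0.12 and 0.04 for the same number, so the numbers were not taken to pair the samples, and the replicate block counted 37 genes in Soft and 7 in the direct difference.

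Scaling by library size alone moved the median log2 fold change of all genes from 0.05 to 0.14 in sh_PIP4K2B and from 0.01 to 0.12 in Soft, with members at -0.69 and -0.66. Medians close to 0 turned sign. That of the origin recognition complex in sh_PIP4K2B was 0.082 with this scaling and -0.080 to 0.053 without 1 library. For Soft against sh_PIP4K2B the median of all members was 0.043 with upper quartile scaling, and without 1 library those of the loading, replication protein A and deoxynucleotide genes ran from -0.14 to 0.13, from -0.040 to 0.33 and from -0.24 to 0.026. At 3 libraries a condition and levels of a few CPM, small changes of genes such as E2F8 or POLE2 are limited by the spread between libraries.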
